A study of Apis mellifera with 9 samples.

Results

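The honey bee (Apis mellifera) miRNAs described here carry registry names of the form ame-miR-N with N of 3000 or more, in the 3000s, 6000s and 9000s. They were taken by name alone from the deposited list of known miRNAs, with ame-miR-3477 left out, and they make up 80 of its 152 entries, or 76 hairpins. A number gives the order of entry into the miRNA registry, so "bee-lineage" is only a working name. The deposited files hold no other species, and whether these miRNAs occur outside bees was not analysed here.

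The libraries came from 3 pools of adult worker ovaries, each of 40 ovary pairs from workers of 1 colony. The workers were taken 4 days after emergence, after brood frames had been kept at 34 °C and 80% humidity, from a set of 5 colonies headed by sister queens. All pools belong to the same untreated group, so values were compared between miRNAs and between pools. Each pool number has 1 small RNA, 1 rRNA-depleted RNA-seq and 1 RNase R-treated circRNA library, and nothing in the labels says whether a shared number means the same RNA. Known miRNA reads numbered 4771430, 7276608 and 6681742 in pools 1, 2 and 3. RNA-seq fragments, derived here from the deposited FPKM values, numbered 31930244, 27684048 and 26602582. Where 3 values are given for a gene they are those of pools 1, 2 and 3, and means are ± SD over the 3 pools (n = 3).

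A miRNA is cut from a hairpin in a longer transcript by Drosha and Dicer, and the short mature strand is loaded onto an Argonaute protein, which it guides to messenger RNAs by its seed, the bases that follow its first. Either arm of the hairpin, named 5p and 3p, can supply the mature strand. Many hairpins lie inside other genes and can be made from the same transcript as their host. miRNAs found in few species are in general less abundant than those conserved across animals, and less is known of what they do.

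The proteins of this pathway were listed in the RNA-seq table. The nuclear processing pair, ribonuclease 3 (LOC410968, Drosha) and DGCR8 (LOC414009), stood at 16.7 ± 1.56 and 8.44 ± 2.21 FPKM (fragments scaled by exon length and by the size of the library). Exportin-5 (LOC413344), which carries hairpins out of the nucleus, was at 11.4 ± 0.680 FPKM and Dcr-1, which cuts them in the cytoplasm, at 11.7 ± 0.449 FPKM. A further Dicer-like gene (LOC726766) stood at 27.8, 11.4 and 22.7 FPKM (20.7 ± 8.38), lowest in pool 2. An argonaute (LOC725111) stood at 3.27 ± 0.781 FPKM. The 2 products named argonaute-2 reached 54.4 ± 6.55 (LOC552062) and 44.0 ± 5.93 FPKM (LOC411577), and gawky (LOC411646), the GW182 protein of the silencing complex, 112 ± 26.1 FPKM. Loquacious could not be matched by name.

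The deposited tables gave sequences for newly predicted miRNAs, and 3 of these lay beside or over a high-number hairpin. Mature sequences of the 80 known entries are not printed here. The best supported prediction, Novel_10, lay on the minus strand of linkage group 2 at positions 14937371 to 14937434, 81 bases from the hairpin of miR-3715 on the same strand. Novel_14 lay on the plus strand of linkage group 1 at 27076248 to 27076333, over the hairpin of miR-9871. No source used here names the genome build of these positions. The predicted hairpins read as follows in the authors' table, with the mature strand in capitals.

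Novel_10: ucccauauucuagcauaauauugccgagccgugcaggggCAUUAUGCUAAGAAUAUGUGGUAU
Novel_14: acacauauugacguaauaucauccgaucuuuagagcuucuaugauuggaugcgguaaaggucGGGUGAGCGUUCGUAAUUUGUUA

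In both, the mature strand ends the predicted hairpin at its 3′ side. Novel_10 had 310, 357 and 284 reads, or 65.0, 49.1 and 42.5 reads per 1000000 known miRNA reads, so it was read in every library. Novel_14 had 0, 0 and 2 reads, and its mature strand overlapped the listed position of miR-9871 by 7 or 8 bases, depending on how the start is counted. The last prediction, Novel_2, had 0, 1 and 0 reads and lay 2 bases from the hairpin of miR-6065.

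The high-number miRNAs held little of the small RNA libraries. Their reads were 0.591% (28193 reads, 95% Wilson interval 0.584 to 0.598%), 0.568% (41308, 0.562 to 0.573%) and 0.699% (46726, 0.693 to 0.706%) of all known miRNA reads, which is 0.619 ± 0.0703%. Pool 3 was highest and its interval lay above those of the other pools. Intervals and floors here cover counting error only. For scale, miR-276 alone stood at 501372 ± 60884 reads per 1000000 known miRNA reads, called normalised reads from here on.

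The median high-number miRNA had 2.93, 3.16 and 3.14 normalised reads, against 921 ± 32.0 for the median of the 72 other known miRNAs. On the log2(normalised reads + 1) scale the median level differed (high-number minus other) by −7.83, −7.85 and −7.78, or −7.82 ± 0.03, so it was lower in every pool. The pools gave almost the same gap. It is a description with no test, since the lists were chosen with results known. Levels over 100 normalised reads were reached by 7 of the 80 high-number miRNAs and by 48 of the 72 others, and over 1000 normalised reads by 2 and 36.

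Median levels were lower in the later series of names. The 22 entries of the 3000s held 0.412, 0.489 and 0.576% of known reads, with a median of 20.7 ± 3.08 normalised reads. The 35 entries of the 6000s held 0.173, 0.0739 and 0.117%, with a median of 3.41 ± 0.0496 normalised reads. The 23 entries of the 9000s together held only 0.00585, 0.00528 and 0.00611%, with a median of 0.830 ± 0.177 normalised reads, near the floor of 3 reads. That floor was 0.629, 0.412 and 0.449 normalised reads.

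**Figure D1:**
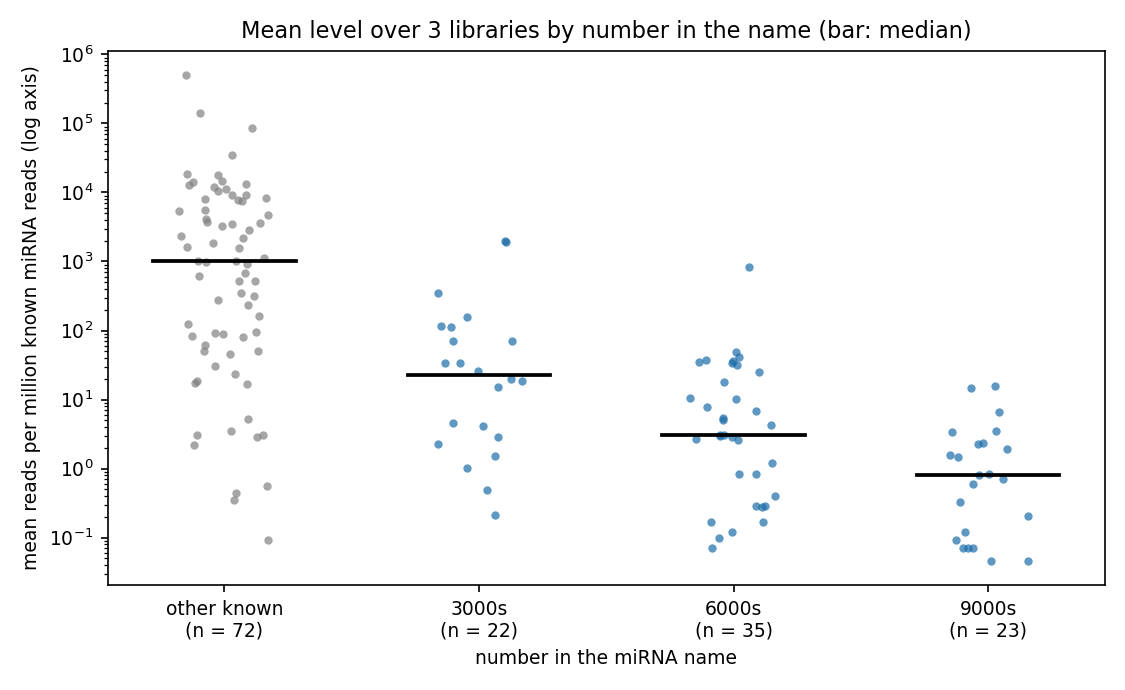
Mean level over the 3 libraries (reads per 1000000 known miRNA reads, log axis) for each miRNA, grouped by the number in its name; each point is 1 miRNA and the bar is the median of the points. The median falls from the other known miRNAs through the 3000s and 6000s to the 9000s. Points of every series overlap the range of the other known miRNAs, which reaches down to miR-9b at 0.0916 normalised reads.

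Most entries were nevertheless read in every library. At least 1 read in each of the 3 libraries was found for 65 of 80 high-number miRNAs (81.25%) and for 71 of the 72 others (98.6%). At least 10 reads in each were found for 46 (57.5%) and 68 (94.4%). By series, that was 18 of 22 in the 3000s, 23 of 35 in the 6000s and 5 of 23 in the 9000s. In single libraries 75, 70 and 71 members had a read, with the most in pool 1, the library with the fewest known reads.

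The 15 members without a read in some library were all rare. The largest counts among them were 0, 3 and 7 reads for miR-3747b, 3, 0 and 0 for miR-3763 and 1, 3 and 0 for miR-9890. Another 6 were seen in 2 libraries at most with 1 or 2 reads each, namely miR-6049, miR-6050, miR-6062, miR-9871, miR-6059 and miR-9894. The remaining 6, miR-9867, miR-6063, miR-9880, miR-9884, miR-9882 and miR-9873, each rested on 1 read in 1 library. A count of 0 allows a level up to the floors above, so at this depth presence or absence of these 15 could not be compared between pools.

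**Figure D2:**
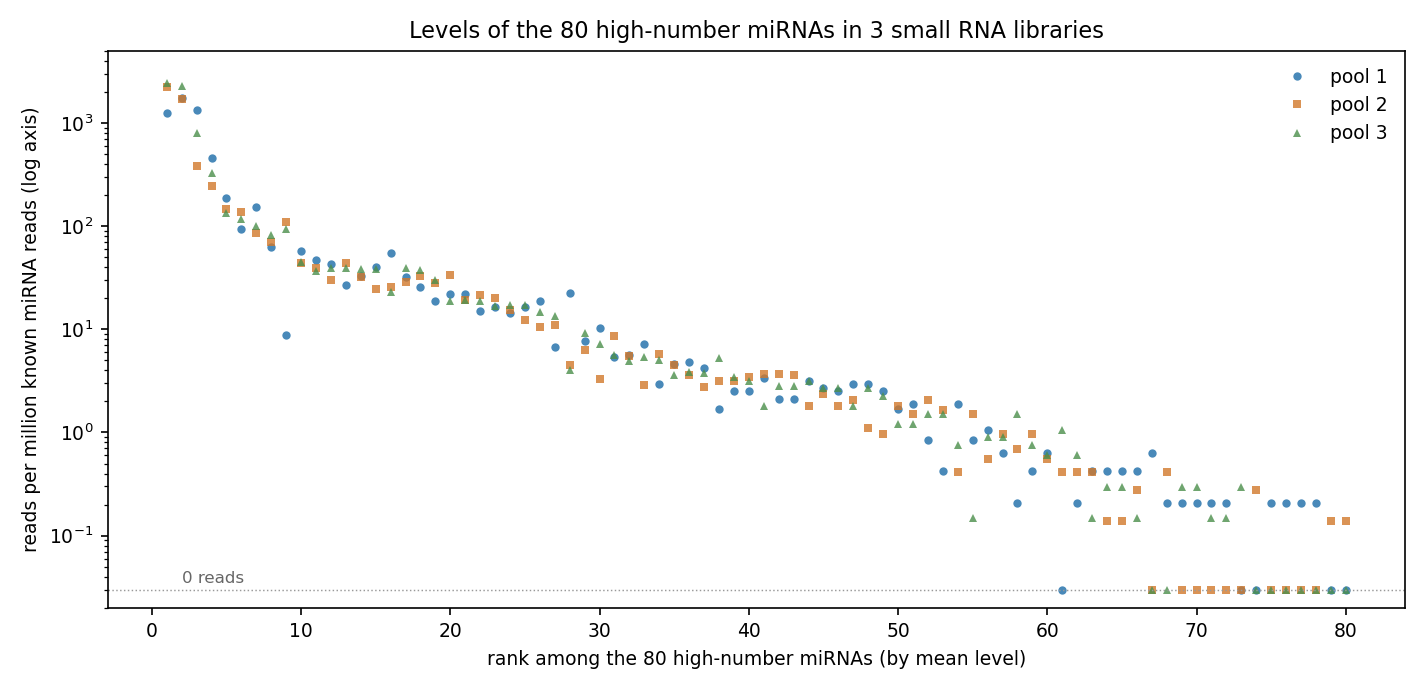
Level in each small RNA library (reads per 1000000 known miRNA reads, log axis) of the 80 high-number miRNAs, ordered by mean level; symbols are the 3 pools and points on the dotted line had 0 reads. The 3 highest miRNAs stand apart, and miR-3783, ninth in order, has its pool 1 point far below the other two.

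A few members carried most of the reads. By mean level, the top member miR-3791 held 31.9 ± 9.58% of the high-number reads, with 21.1% in pool 1 as its lowest share. The top 3 held 76.1 ± 3.10%, the top 5 held 84.2 ± 1.42% and the top 12 held 92.3 ± 0.683%. In pool 1 miR-3785 and miR-6001-3p had more reads than miR-3791. Without the top 3, the share of known reads was 0.160, 0.136 and 0.146%. Among the other known miRNAs, the top 1 held 50.4 ± 6.12% of their reads, the top 3 held 73.3 ± 3.00%, the top 5 held 78.6 ± 3.54% and the top 12 held 88.3 ± 1.71%. Their first miRNA thus held more than that of the high-number set, and their top 12 less.

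Of the known miRNAs with high numbers, miR-3791 was the most abundant in mean. It had 5956, 16316 and 16358 reads, or 1248, 2242 and 2448 normalised reads (1980 ± 642), which is rank 31 of the 152 entries. Pool 1 was lowest, and the next in order, miR-3785, did not differ from it beyond their spread. miR-3785 had 8267, 12343 and 15333 reads (1908 ± 336 normalised reads, rank 32). Their neighbours by rank were miR-34 (2204 ± 1019, rank 30), a conserved miRNA, and miR-279b (1869 ± 417, rank 33), so the levels of all 4 overlapped.

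Next was miR-6001-3p at 6346, 2756 and 5296 reads (834 ± 477 normalised reads, rank 41), between miR-2944 and miR-375. It was highest in pool 1 and lowest in pool 2. miR-3715 followed with 2198, 1777 and 2183 reads (344 ± 109 normalised reads, rank 47), next to the muscle miRNA miR-1 at 350 ± 171 normalised reads.

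Below these, each mean differed from the next in order by less than the sum of their SDs. miR-3718a had 896, 1077 and 899 reads (157 ± 27.7 normalised reads), miR-3786 had 451, 993 and 778 (116 ± 21.0) and miR-3049-5p had 732, 628 and 675 (114 ± 35.3). miR-3049 has the lowest number in the set, and its 5p strand took rank 55 of 152. miR-3049-3p reached 71.5 ± 9.44 normalised reads from 300, 509 and 545 reads. miR-3783 had 42, 791 and 625 reads (70.3 ± 53.8 normalised reads), with pool 1 far below the others. The last of the 12 highest were miR-6005-5p with 272, 318 and 298 reads (48.4 ± 7.44 normalised reads), miR-6051 with 223, 283 and 245 (40.8 ± 5.29) and miR-6005-3p with 203, 218 and 260 (37.1 ± 6.48). For the limit of the rule, the highest number outside it was miR-2944 at 919 ± 74.6 normalised reads, and the excepted miR-3477 stood at 2361 ± 401.

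Differences of 2-fold or more between pools were counted next. Among those with at least 50 reads in all, 7 of 43 (16.3%) had a highest library at least 2 times the lowest, after 1 read was added to each count, against 26.4% of all 110 known miRNAs that reached this minimum and 32.8% of the other known miRNAs. The median ratio was 1.53 for members and 1.69 for the others. In 5 of the 7 the highest library was pool 1 and in the other two the lowest was pool 1, where 13.6% of all known miRNAs tested were at least 2-fold and highest in pool 1 and 11.8% at least 2-fold and lowest there. Each pool is 1 library, so these ratios have no replicate. Without pool 1, 2 of 43 members (4.65%) differed 2-fold against 5 of 110 known miRNAs (4.55%). Without pool 2 it was 4 of 43 (9.30%) against 20 of 110 (18.2%). On the authors' RPM it was 11 of 43 (25.6%) against 33 of 110, so the gap between members and all known miRNAs was small in that setting and without pool 1.

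miR-3783 had the widest range, with 8.80, 109 and 93.5 normalised reads, a 12.1-fold ratio. Without pool 1 the ratio was 1.16, so the range rested on that library. miR-6052 did the reverse, with 107, 33 and 27 reads, a 5.40-fold ratio with pool 1 highest, and 1.12 without it. Both strands of the miR-6001 hairpin had the same order of pools, and miR-6001-3p differed 3.51-fold and miR-6001-5p, with 49, 24 and 48 reads, 3.05-fold. Both were lowest in pool 2, and without it the ratios were 1.68 and 1.43. miR-3759 had 259, 186 and 152 reads, a 2.38-fold ratio, and 1.12 without pool 1. The last pair were rare, with 8, 23 and 35 reads for miR-9891 (2.86-fold) and 34, 21 and 36 for miR-6053 (2.43-fold). Without pool 1 the ratio was 1.63 for miR-9891 and 1.83 for miR-6053. Without pool 3 it was 1.75 for miR-9891, and without pool 2 it was 1.32 for miR-6053.

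A chi-square test of homogeneity asked whether a miRNA took the same share of reads in the 3 libraries as sequenced. It compares libraries, not conditions, and any spread between pools adds to it. With Benjamini-Hochberg adjustment over all 125 known and predicted miRNAs with enough reads, unequal shares were found for 26 of 53 high-number miRNAs (49.1%) and for 73.6% of all miRNAs tested. Without pool 1 it was 17 of 57 (29.8%) against 55.5% of all tested. The adjusted p of the chi-square test was 1.17e-87 for miR-3783 and 7.21e-29 for miR-6052. Deeper counts make smaller differences pass, and most members were shallow.

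**Figure D3:**
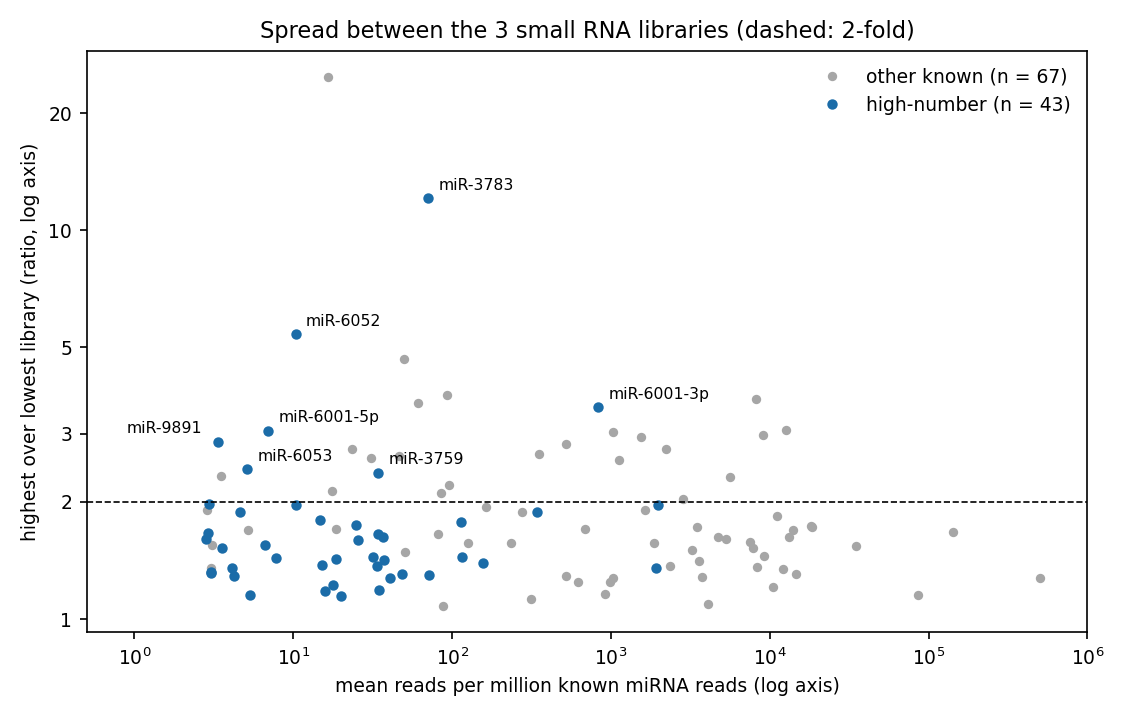
Ratio of the highest to the lowest library (log axis) against mean level (reads per 1000000 known miRNA reads, log axis) for known miRNAs with at least 50 reads in all; blue points are the 43 high-number miRNAs, grey points the 67 others, and the dashed line marks 2-fold. Only 7 blue points lie above the line, with miR-3783 at 12.1-fold the highest of them.

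Pool 1 also stood apart in marker genes of gut and muscle, though miR-133 of muscle was highest in pool 3. In RNA-seq, 11 of 11 digestive protease genes were highest in pool 1, with summed levels of 111, 8.46 and 10.7 FPKM, and so were 11 of 12 muscle genes, with sums of 1428, 701 and 628 FPKM. Cuticle genes summed to 1605, 769 and 637 FPKM, with 24 of 41 highest in pool 1 and 14 in pool 3. That sum rested on the apidermin gene Apd-3 at 918, 21.8 and 35.7 FPKM, and without it the sums were 688, 748 and 602 FPKM, with pool 1 no longer highest. Without their own widest gene, the digestive sums were 59.3, 8.42 and 10.2 FPKM and the muscle sums 1088, 469.7 and 487 FPKM. None of the marker genes was at 0 in all 3 libraries, but only 2 of the 11 digestive genes reached 1 FPKM in every pool. How many of all genes were highest in pool 1 was not counted, so these counts have no background. The germ cell genes, all 5 of them at 1 FPKM or more and all 5 highest in pool 3, summed to 183, 198 and 207 FPKM. Among marker miRNAs, miR-1 of muscle stood at 537, 203 and 310 normalised reads, miR-133 of muscle at 5853, 3959 and 14599, and miR-124 of neurons at 17.0, 52.6 and 80.2. miR-989 and miR-318, known from the ovary in Drosophila, were at 627, 1134 and 1613 and at 14.9, 38.6 and 39.1 normalised reads. The part of other tissue in the ranges of miR-3783, miR-6052 and the others was not tested. In bulk tissue, fewer cells of a type and less RNA per cell cannot be told apart.

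The 80 entries divided evenly between arms, with 40 from the 5′ side and 40 from the 3′ side of the hairpin. Their median length was 22 bases (range 20 to 24), and 37 had exactly 22. Listed hairpins had a median of 82 bases, against 100 for the other known miRNAs. The median was 104 bases in the 3000s, 78.5 in the 6000s and 81 in the 9000s, so only the later series were shorter. The mature strand lay exactly 10 bases from a hairpin end in 54 of the 80, against 5 of 72 others. That feature followed the series of the name, with 3 of 22 in the 3000s, 28 of 35 in the 6000s and 23 of 23 in the 9000s.

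Both arms were listed for 4 hairpins, and their balance differed from hairpin to hairpin. At miR-6001 the 3p arm held 99.2, 99.1 and 99.1% of the pair (99.2 ± 0.0684%), the most lopsided of the 4. At miR-3049 the 5p arm held 70.9, 55.2 and 55.3%, with pool 1 higher than the others. At miR-6005 both arms were close to even, with 57.3, 59.3 and 53.4% in the 5p arm. At miR-6000a the 5p arm held 66.7, 74.8 and 88.2%, from only 16, 27 and 12 reads of the 3p arm.

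In 3 further cases the hairpins of a pair lay over each other on opposite strands. miR-3791 and miR-3478 share 78 bases of hairpin, and miR-3791 held 98.8, 99.0 and 99.2% of their reads, since miR-3478 had only 72, 158 and 126. miR-6000b lay opposite miR-6000a, with a mature overlap of 21 bases against miR-6000a-5p, and held 70.9, 64.6 and 55.7%. miR-6047a held 87.5, 94.9 and 85.8% against miR-6047b. No source used here states the strand rule of the small RNA counting, so the split within such pairs is uncertain.

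**Figure D4:**
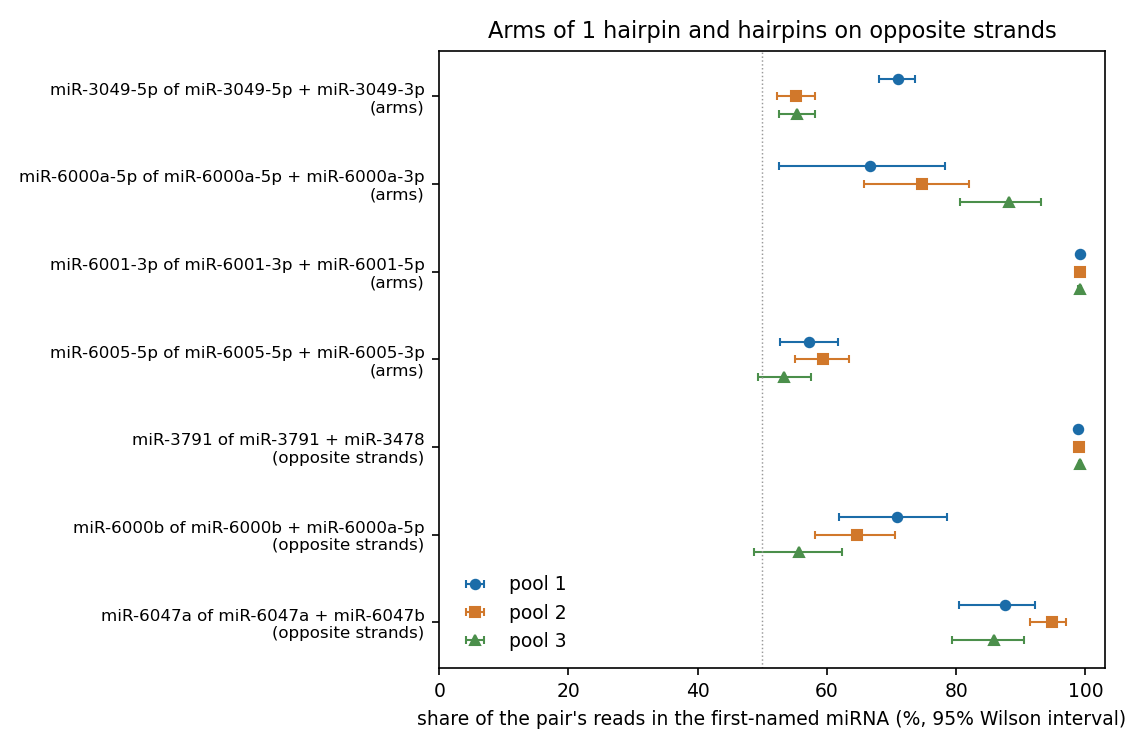
Share of a pair's reads in the first-named miRNA (%, with 95% Wilson interval) for 4 pairs of arms and 3 pairs of hairpins on opposite strands; symbols are the 3 pools and the dotted line marks equal shares. miR-6001-3p and miR-3791 held about 99% in every pool, while the pairs of miR-3049 and miR-6005 lie nearer the line.

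Of the 76 hairpins, 71 were placed on the 16 linkage groups, with 12 on linkage group 3 and 6 each on linkage groups 2 and 4, and 5 lay on unplaced scaffolds. The span of a listed gene on the same strand held 39 of them, in 37 cases a protein-coding gene and in 2 a lncRNA. Another 5 lay only opposite a gene, and 32 lay in no listed gene. The table gives gene spans, so exons and introns could not be told apart. Places were not counted for the other known miRNAs, so these counts have no background. Level hardly differed between the 2 larger groups, with a median of 2.90 normalised reads for the 42 entries inside a same-strand gene and 3.03 for the 33 in no listed gene. The 5 opposite a gene had a median of 15.7 normalised reads. The RNA-seq level of the hairpin itself had a median of 2.75 FPKM inside a same-strand gene (33 entries). It was 0.518 FPKM opposite a gene (5 entries) and 23.9 FPKM in no listed gene (27 entries). How fragments over more than 1 listed gene were counted is not known here, so these medians may not be comparable.

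miR-3791 lay opposite cytoplasmic aconitate hydratase (LOC409485, 47.5 ± 3.26 FPKM), an iron-sulphur enzyme, on linkage group 15 at 1395559 to 1395579 of the minus strand. miR-3785 lay in LOC724417 (12.2 ± 2.94 FPKM) on linkage group 10 at 11271272 to 11271293 of the minus strand. miR-3718a lay in a gene for a cytochrome b5 reductase 4-like protein (LOC410936, 14.3 ± 0.776 FPKM). miR-3049 lay in the gene of the GABA-B receptor subunit 2 (LOC410140, 2.21 ± 0.179 FPKM). miR-3786 lay in GluCl, a glutamate-gated chloride channel (2.18 ± 0.502 FPKM). miR-6000a and miR-6040 shared a vesicular glutamate transporter-like gene (LOC725462), at 7.09, 2.47 and 2.18 FPKM with pool 1 highest.

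miR-3783, the member with the widest range, lay on linkage group 13 at 3872386 to 3872408 in a glutamate decarboxylase-like gene (LOC408432). Its host was barely read, at 0.300, 0.0619 and 0.309 FPKM, and was not lowest in pool 1, where the miRNA was. miR-6052 lay in a la-related protein gene (LOC724517) at 52.5, 68.0 and 63.1 FPKM. That host was lowest in pool 1, where miR-6052 was highest. miR-6001, miR-3715 and miR-6051 lay in no listed gene. The 3p strand of miR-6001 is on linkage group 13 at 2707109 to 2707130, and miR-3715 on linkage group 2 at 14937576 to 14937598, both on the minus strand.

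Circular RNAs, closed loops made by back-splicing, spanned 18 of the hairpins on the same strand. The span is that of the genome between the ends of the back-splice, so whether a circle holds the hairpin is not known. The same count was not made for the other known miRNAs. miR-6056, chosen for this after the values were seen, lay in tensin-1 (LOC408429, 117 ± 30.7 FPKM), a protein of cell adhesion, under 11 circRNAs, of which the highest stood at 10181 SRPBM (back-spliced reads scaled by the authors to mapped reads). The hairpin of miR-6049 was spanned by a circRNA at 13795 SRPBM, and the mature strand of miR-6049 had 1, 0 and 2 reads. miR-6059, at 0, 0 and 2 reads, lay in bicaudal C (LOC413416, 20.3 ± 0.727 FPKM), a gene of oocyte patterning in Drosophila.

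Another miRNA gene within 10000 bases was found for 16 of the hairpins, and 7 overlapped one, with no such count made for the other known miRNAs. The most abundant member lay in the densest of these groups. The hairpin of miR-3791 was 16 bases from that of miR-279b on the same strand of linkage group 15, and those of miR-9c, miR-2944 and miR-318 followed at 169, 371 and 536 bases on that strand. miR-3791 and miR-279b stood at close levels, with 5956, 16316 and 16358 reads against 6670, 15934 and 13486, and both were lowest in pool 1. Their means of 1980 ± 642 and 1869 ± 417 normalised reads overlapped. The others of the group were lower, at 81.1 ± 20.9 normalised reads for miR-9c, 919 ± 74.6 for miR-2944 and 30.9 ± 13.8 for miR-318, so levels within the group were not alike.

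At 3 other hairpins the neighbouring known miRNAs were far more abundant. The hairpin of miR-3730 lay 505 bases from that of miR-277 and 3976 bases from that of miR-34 on the same strand. It had 10, 26 and 19 reads, against 106230, 146579 and 86021 for miR-277 and 4907, 20129 and 18831 for miR-34. miR-6057 lay 291 bases from miR-252b and 5923 bases from miR-252a, with 12, 25 and 21 reads against 1110, 1020 and 802 and against 19094, 28517 and 28600. miR-9871 lay 3486 bases from miR-33, with 1, 0 and 1 reads against 283, 699 and 877. miR-6038, at 193, 178 and 254 reads, was nearer the level of its neighbour miR-210 at 5709 bases, which had 131, 279 and 484.

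Levels also differed between neighbours within the set. miR-3718c lay 86 bases from miR-3718a and had 23, 26 and 26 reads against 896, 1077 and 899. miR-6045 had 13, 17 and 18 reads and miR-9864, at 2188 bases, 90, 76 and 99. The hairpins of miR-6040 and miR-6000a were 493 bases apart in their shared host. miR-6040 had 156, 236 and 257 reads, more than either strand of miR-6000a in every pool. Neighbouring genes without a mature entry were Mir3747a at 543 bases from miR-3747b, and Mir3718b, which lay over miR-3718a on the opposite strand and 92 bases from miR-3718c.

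The RNA-seq table offered a second readout, fragments assigned to the hairpin gene itself. A row was found for 62 of the 76 hairpins, and 28 of these had at least 10 fragments in every library. Over the 62, the median was 5.06 FPKM against 4.49 FPKM for 48 hairpins of other known miRNAs, so the hairpin medians lay close while the mature medians did not. Across miRNAs, Spearman's rho between mature level and hairpin FPKM was −0.16 over 65 high-number entries and 0.54 over 49 others. Against the host gene, rho was 0.22 for hairpin FPKM (31 hairpins) and −0.18 for the mature level (42 entries). These 4 values are descriptions across miRNAs, which share libraries and are not independent replicates. FPKM divides by length, and hairpin genes are short.

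**Figure D5:**
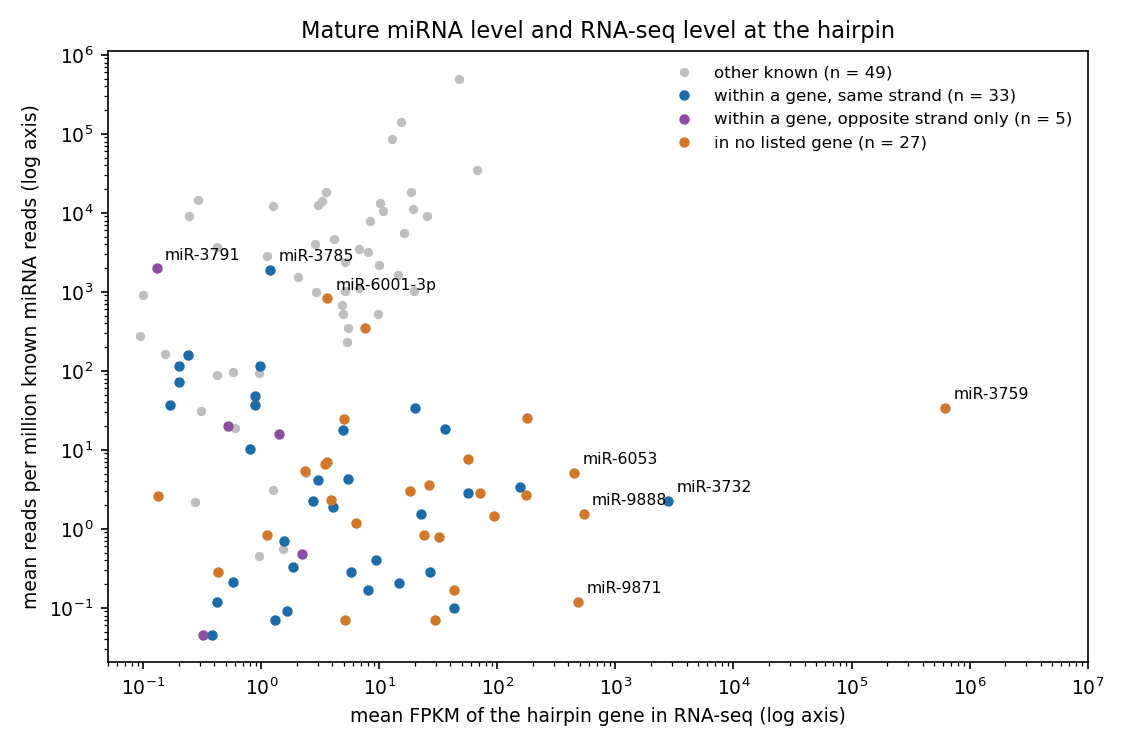
Mean mature level (reads per 1000000 known miRNA reads, log axis) against mean FPKM of the hairpin gene in RNA-seq (log axis); coloured points are high-number miRNAs by their place relative to listed genes and grey points other known miRNAs. miR-3759 lies far to the right at 617051 FPKM with a modest mature level, and miR-3791 lies at the left with the highest mature level of the set.

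The 3 most abundant mature strands of the set had few hairpin fragments, while miR-3715, the next in order, had 15, 13 and 33. Among abundant other known miRNAs, miR-9a also had few (0, 0 and 2 fragments), but miR-276 had 129, 94 and 116. The hairpin of miR-3791, which lies opposite miR-3478 and a listed gene, had 0, 1 and 0 fragments. That of miR-3785 had 6, 2 and 5 and that of miR-6001 had 8, 3 and 10. The opposite was seen at miR-3759, on an unplaced scaffold with 7 listed features. Its gene row took 2707128, 785675 and 1520162 fragments, or 8.48, 2.84 and 5.71% of all fragments in the RNA-seq libraries (617051 ± 306556 FPKM). It held 99.1, 98.0 and 98.7% of all fragments given to miRNA genes, whereas its mature strand had 259, 186 and 152 reads.

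The other 4 of the 5 highest hairpins were far below. miR-3732 stood at 2793 ± 827 FPKM with 13383, 6867 and 12118 fragments and 14, 15 and 12 mature reads. It lay in the lncRNA LOC102656864, itself at only 1.72 ± 0.861 FPKM. miR-9888 (539 ± 46.0 FPKM), miR-9871 (480 ± 167) and miR-6053 (450 ± 85.1) also had many hairpin fragments and few mature reads. For miR-9888 these were 1482, 1163 and 1043 fragments against 8, 13 and 8 mature reads. What RNA these fragments came from was not tested.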

How the data were processed

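Small RNA, RNA-seq and circRNA libraries of 3 worker ovary pools (9 libraries) were used. For miRNAs the authors deposited raw read counts and RPM values per library. The authors' RPM totals were derived here from the reads and RPM of abundant miRNAs. They were 6137629, 8112823 and 7539464, of which known reads made up 77.7, 89.7 and 88.6%. Gene levels were deposited as FPKM and circRNA levels as SRPBM, a normalised signal, per the file headers. The submitters' processing notes give no roles for the tools they name, which are HTSeq 0.6.1, TopHat2 2.0.9, Bowtie2 2.0.6 and Bowtie. The genome build and the strand rule of counting are not given in the sources used here.

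Counts were divided by the known reads of the library and scaled to 1000000, with Wilson 95% intervals. A count of 0 was given a floor of 3 reads. Medians used log2(normalised reads + 1). Ratios between libraries needed at least 50 reads in all and added 1 read to each count. The chi-square test needed expected counts of 5 and was adjusted by Benjamini-Hochberg at 0.05 over all known and predicted miRNAs. It was first run on counts simulated with counting error alone, apart from changes set in pool 1. That run had no other spread between libraries, so it does not show the error rate of the test on these data. FPKM times gene length was divided by its smallest value above 0 among miRNA genes of the library, taken as 1 fragment. This gave whole numbers for all 170 miRNA genes (tolerance 1e-06). Fragment counts and the fragment totals of the RNA-seq libraries rest on that step. Loci were matched by position and strand, and miRNA genes within 10000 bases counted as neighbours. Python 3.11.15 with scipy 1.17.1 was used, and edgeR 4.0.16 for TMM and median-of-ratios size factors only.

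The named miRNAs were the 12 highest, the 7 with a ratio of 2-fold or more between libraries and those with 0 reads in a library. Those near another miRNA gene and the 5 with the highest hairpin FPKM were named too. The plan was to name the 6 with the widest ratio. miR-6056 was added for its circRNAs after its values were seen. A planned comparison of seeds and base composition could not be made without the mature sequences. The members and lists were chosen with earlier results of these data known. Nothing in the labels says that pools differ in more than colony. The p-values set differences between these libraries against counting error alone, and no spread between replicate libraries enters them.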

Additional observations from a re-analysis of the deposited data

Results flagged for a closer look

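These 4 signals lay outside the list of known miRNAs and were above the floor of 3 counts. The predicted miRNA Novel_10, 81 bases from the hairpin of miR-3715, had 310, 357 and 284 reads. In the RNA-seq table, 109 of the 170 miRNA genes carried high numbers and 47 of these had no mature entry among the known miRNAs. Of those 47, 8 had at least 10 fragments in every library. Mir6067 stood at 223, 209.8 and 249 FPKM (mean 227). Mir6037 stood at 152, 145 and 200.5 FPKM (mean 166). Mir9879 stood at 16.2, 29.4 and 12.1 FPKM (mean 19.2, n = 3). The first pair varied little between pools, and the last was highest in pool 2. The median of the 47 was 1.19 FPKM. Mature reads of these genes were not analysed here.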

How the results depend on the processing

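Of 35 alternatives of the main results, 15 moved and 20 stayed the same within the limits set for them. Of 102 alternatives of single miRNAs, 14 moved, 9 were weaker and 79 stayed the same. Only the median difference could change its sign, and it did not. Shares, counts, levels and ratios cannot reverse. The share of known reads was 0.529% with the authors' RPM totals as denominator, 1.25% without miR-276 in it, and 0.579 to 0.645% when each pool was left out. The count of members read in all libraries was 19 at 100 reads or more, and 66 to 69 with a pool left out. The median log2 difference was −5.77 among entries with at least 50 reads, −8.18 both against the narrower set of 64 miRNAs and with pseudocount 0.1, −6.15 with pseudocount 10 and −7.76 on the authors' RPM, and −7.84 to −7.81 with a pool left out. The count of 2-fold members was 11 of 43 on the authors' RPM (all known 33 of 110), 15 of 61 at a minimum of 10 reads (39 of 130), 3 of 18 at 500 reads (21 of 76) and 4 of 43 at 3-fold (11 of 110). With TMM factors it was 10 of 43 (32 of 110) and with median-of-ratios size factors 8 of 43 (30 of 110). With a pool left out it was 2 to 6 of 43 (5 to 22 of 110). Unequal shares were found for 17 to 23 members with a pool left out, or 29.8 to 42.6% of members tested, against 55.5 to 67.7% of all miRNAs tested. The cause of these moves was not tested. Among single miRNAs, 9 ratios fell under 2-fold without a pool. No paired analysis was possible because all pools form 1 group and no test compares groups. Only 53 of 80 members had reads enough for the chi-square test, so differences among rare miRNAs were not detectable at this depth.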
